A study of Homo sapiens with 12 samples.

Results

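The genes described here encode 10 Golgi enzymes that remodel N-glycans, the branched sugars carried on asparagine residues of secreted and membrane proteins. They are MAN1A1, MAN1A2, MAN2A1, MAN2A2, MGAT1, MGAT2, MGAT4A, MGAT4B, MGAT5 and FUT8, and all 10 were found by symbol among the 23583 features of the count table. They were chosen by their place in the pathway and selected on their measured levels (CPM, counts scaled to library size) in these same libraries, so their values are given as a description, with no test of the enzymes themselves.

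RNA sequencing was done in 2 human hepatocellular carcinoma cell lines, Huh7, which keeps many hepatocyte functions, and HCCLM3, a line used as a model of metastasis. Each line received an siRNA against circASH2, a circular RNA named after its host gene ASH2L (si-circASH2), or the control siRNA labelled si-NC, with 3 libraries in each of the 4 groups (12 in all). The stated purpose was to learn what silencing circASH2 does to gene expression in connection with metastasis. The circle has no row of its own in the tables, so its level was not analysed here, and neither the siRNA sequences nor the time of harvest were given in the sources used here. Library totals lay between 29006781 and 30858895 counts. Nothing in the labels says that replicates came from separate cultures, so the errors below measure the spread between libraries, which may be technical. The summed level of 8 hepatocyte markers, among them ALB and AFP, was 36880 to 36976 CPM in Huh7 si-NC and 33792 to 34518 CPM in Huh7 si-circASH2. In HCCLM3 the same sum was only 62.3 to 64.3 CPM with si-NC and 75.3 to 78.6 CPM with si-circASH2, most of it from APOB (52.0 ± 3.57 and 63.7 ± 1.01 CPM), while the means of ALB, AFP and the other 5 lay between 0.0226 and 4.88 CPM. Summed fibroblast markers were 34.3 to 40.1 CPM with si-NC and 56.7 to 57.7 CPM with si-circASH2 in Huh7. In HCCLM3 they were 35.6 to 37.9 and 48.9 to 53.5 CPM. Most of this came from COL1A2 in Huh7 (24.4 and 38.9 CPM) and from LUM in HCCLM3 (34.3 and 48.4 CPM). DCN was at 0 in Huh7, and COL1A2 and PDGFRB were at 0 in HCCLM3 si-NC. Endothelial markers summed to 24.1 to 27.4 and 23.7 to 24.4 CPM in Huh7 and to 25.9 to 27.8 and 19.6 to 21.8 CPM in HCCLM3. Most of this came from PECAM1 in Huh7 (26.0 and 23.8 CPM). In HCCLM3 it came from PECAM1 (15.1 and 12.4 CPM) and KDR (10.8 and 7.69 CPM). Leukocyte markers summed to 381 to 418 CPM with si-NC and 336 to 363 CPM with si-circASH2 in Huh7. In HCCLM3 their sum was 168 to 190 and 216 to 260 CPM, and the T cell marker CD3E was at 0 throughout. Most of the Huh7 sum came from LYZ (375 and 312 CPM), with PTPRC at 0 and 0.0334 CPM. Most of the HCCLM3 sum came from CD68 (154 and 187 CPM) and CD79A (25.2 and 48.7 CPM), with PTPRC at 0.586 and 0.849 CPM. The part of these differences in the results below was not tested, and in such bulk RNA fewer cells of a kind and less RNA per cell cannot be told apart.

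As background, N-glycans enter the Golgi as high-mannose structures. The class I mannosidases MAN1A1 and MAN1A2 trim them, MGAT1 adds the first N-acetylglucosamine, the class II mannosidases MAN2A1 and MAN2A2 remove further mannose and so turn a hybrid into a complex glycan, and MGAT2 starts the next antenna. MGAT4A, MGAT4B and MGAT5 add further branches, and FUT8 attaches fucose to the core of the glycan. In liver, most proteins secreted into plasma carry such glycans, and branching and core fucosylation are well known for changing in hepatocellular carcinoma.

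The transcripts of the class II mannosidases and of 3 further enzymes share a short sequence in the 3′ untranslated region (UTR), and these sites are shown first because the 3 mannosidases with the largest decreases after knockdown hold them. TTATACC and TATACCA, which overlap as TTATACCA, came to attention in an earlier analysis of these same libraries, where genes that hold them were often lower after knockdown, so their presence is not independent evidence. They were searched on the transcript strand only, together with TCGGAGAA, in 1 coding transcript per gene of GENCODE 29 (GRCh38). Each line below gives the site in capitals, written 5′ to 3′ as DNA letters on the strand of the gene, with up to 10 bases on either side in lower case.
MAN2A1, chr5:109867036-109867042, plus strand: tcattggcttTTATACCtttcttggtt
MAN2A2, chr15:90921982-90921988, plus strand: agagggaagaTATACCAcaaaattact
MAN2A2, chr15:90922008-90922014, plus strand: tcaaaaatttTTATACCtctggtgtgg
MAN1A2, chr1:117523134-117523140, plus strand: ttattccattTTATACCtgaccaaaac
MAN1A2, chr1:117524639-117524646, plus strand: gttgatcatcTTATACCAcgaatcgtta
MAN1A2, chr1:117528541-117528547, plus strand: ctgtaagatgTATACCAgaaaacataa
MGAT1, chr5:180786867-180786874, minus strand: gtctgaccctTTATACCAgaactgtaag
MGAT2, chr14:49623364-49623371, plus strand: tgtttactctTTATACCAaaattcagtg

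Of the 10 enzymes, 5 held TTATACC or TATACCA in the 3′ UTR. Among all 18869 genes with an annotated 3′ UTR, 10.7% held one of the pair, TTATACC being in 6.67% and TATACCA in 7.42%. The searched 3′ UTR of MAN2A1 was the shortest of the 10, at 180 bases, and its site began at base 38. Only 1.46% of genes with a 3′ UTR of 0.8 to 1.25 times that length held one of them. Both figures hold for the 1 coding transcript searched. The annotated gene runs on from this site (109867036) to position 109869625, and a longer 3′ UTR was not searched. At the length of MAN1A1 (2610 bases) 20.6% of genes held a match. A match was far more common at the lengths of MAN1A2 (5915 bases, 35.7% of genes), MGAT1 (6852 bases, 37%) and MAN2A2 (2792 bases, 22.5%). For MGAT2 (869 bases) the share was 6.76%. The MGAT1 site lay at base 4760 of the 3′ UTR of only 1 of its 5 coding transcripts. Outside the 3′ UTR, TTATACCA stood in the coding sequence of MGAT5 and in the 5′ UTR of FUT8, and MAN2A1 had TATACCA in its coding sequence as well. The searched transcripts of MAN1A1, MGAT4A and MGAT4B held neither sequence, and TCGGAGAA was in none of the 10. A match describes these letters in this window and does not show a site in use.

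Levels of different genes can be compared only per transcript length, for which the deposited FPKM (fragments per kilobase of transcript and sequencing depth) served. In Huh7 si-NC libraries the highest level was that of MAN1A1, at 98.0 ± 4.04 FPKM (mean ± SD, n = 3, here and below), followed by MGAT4B at 65.4 ± 0.962. MGAT1 (22.4 ± 1.90 FPKM) and MGAT4A (22.3 ± 0.837) overlapped each other. MGAT5 (16.6 ± 1.24 FPKM) overlapped both MGAT2 (17.6 ± 0.927) and MAN2A1 (16.5 ± 0.474), which did not overlap each other. Below them, without overlap, came MAN2A2 at 13.9 ± 0.552 FPKM, MAN1A2 at 9.17 ± 0.180 and FUT8 at 3.385 ± 0.289.

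The order was different in HCCLM3 si-NC libraries, where MGAT4B led with 76.8 ± 2.40 FPKM and MGAT2 (16.4 ± 1.19) and MAN2A1 (14.5 ± 0.685) followed. MGAT1 (11.6 ± 0.857 FPKM) and MAN1A1 (11.4 ± 0.498) overlapped, and so did MGAT5 (10.2 ± 0.181) and FUT8 (9.57 ± 0.967). MAN2A2 stood at 6.32 ± 0.323 FPKM, MAN1A2 at 4.62 ± 0.250, and MGAT4A, the last, at 0.0488 ± 0.0163. Transcripts of every step were thus measured in both lines, with MGAT4A, the branching enzyme rich in liver, close to 0 in HCCLM3.

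**Figure D1:**
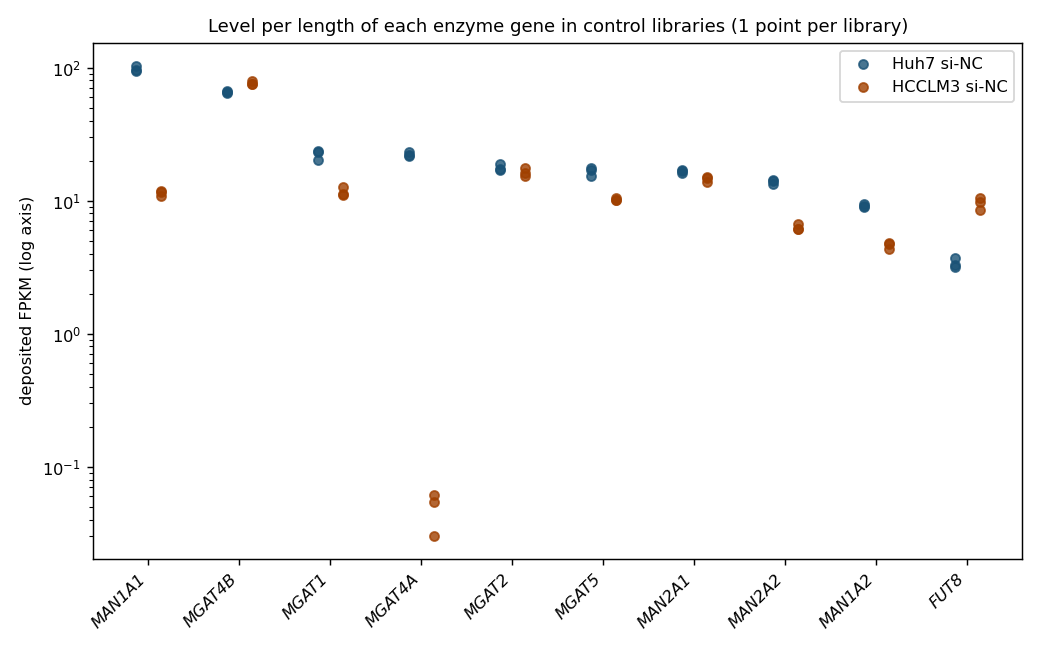
Deposited FPKM (log axis) of each enzyme gene in the si-NC libraries, 1 point per library, blue for Huh7 and brown for HCCLM3, with genes in order of their Huh7 level. MAN1A1 and MGAT4A are far lower in HCCLM3 (11.4 and 0.0488 FPKM) than in Huh7 (98.0 and 22.3 FPKM), FUT8 is higher, and MGAT2 overlaps.

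Between the lines, all 10 enzymes were called different in the si-NC libraries by edgeR's quasi-likelihood test (adjusted p below 0.05 over 16946 tested features), 8 lower and 2 higher in HCCLM3. This says little by itself, because 85.2% of all tested features were called in that comparison, 43.6% lower and 41.6% higher. In 9 of the 10 the groups did not overlap, against 86.5% of features. On the count scale, the log2 difference (HCCLM3 minus Huh7) was -8.66 ± 0.13 (standard error, SE) for MGAT4A, -3.10 ± 0.04 for MAN1A1, and 1.54 ± 0.07 for FUT8. The MGAT4A difference shrank to -4.47 on log2(FPKM + 1), where its HCCLM3 level is far below the 1 that was added. The differences of MAN2A2 (-1.09 ± 0.04), MAN1A2 (-1.01 ± 0.05) and MGAT5 (-0.70 ± 0.04) were of middle size. Small ones were seen for MGAT4B (0.24 ± 0.04), MAN2A1 (-0.19 ± 0.05) and MGAT2 (-0.11 ± 0.05). The groups overlapped for MGAT2, whose call was lost on FPKM and in 6 of the fits that left out 1 library: libraries 1 and 2 of Huh7 si-NC (-0.07 and -0.12), libraries 2 and 3 of HCCLM3 si-NC (-0.08 and -0.10) and libraries 1 and 3 of HCCLM3 si-circASH2 (-0.11 each). For MGAT1 the difference depended on the scale: it was -1.55 ± 0.04 on counts and -0.94 on log2(FPKM + 0.1).

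More of these enzymes were lower than higher after knockdown. In Huh7, 6 of the 10 were called lower and 1 higher, where 31.4% of all tested features were called, 15.1% lower and 16.3% higher. In HCCLM3, 6 were called lower and 2 higher, beside 30.6% of features, 15.5% lower and 15.1% higher. The groups did not overlap in CPM for 9 of the 10 in each line, against 42.7% of features in Huh7 and 43.7% in HCCLM3. In HCCLM3 these include MGAT4A, whose groups touch in counts and are parted only by library scaling. The median log2 fold change of the 10 was -0.14 in Huh7 and -0.30 in HCCLM3, and that of all features was 0.01 and 0.00. All 10 passed the filter on low counts, MGAT4A only through its Huh7 libraries. Since these contrasts were in view when the genes were picked, nothing is read from these counts. Effects of the 2 lines rest on separate libraries, whereas the baseline shares its si-NC libraries with both.

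**Figure D2:**
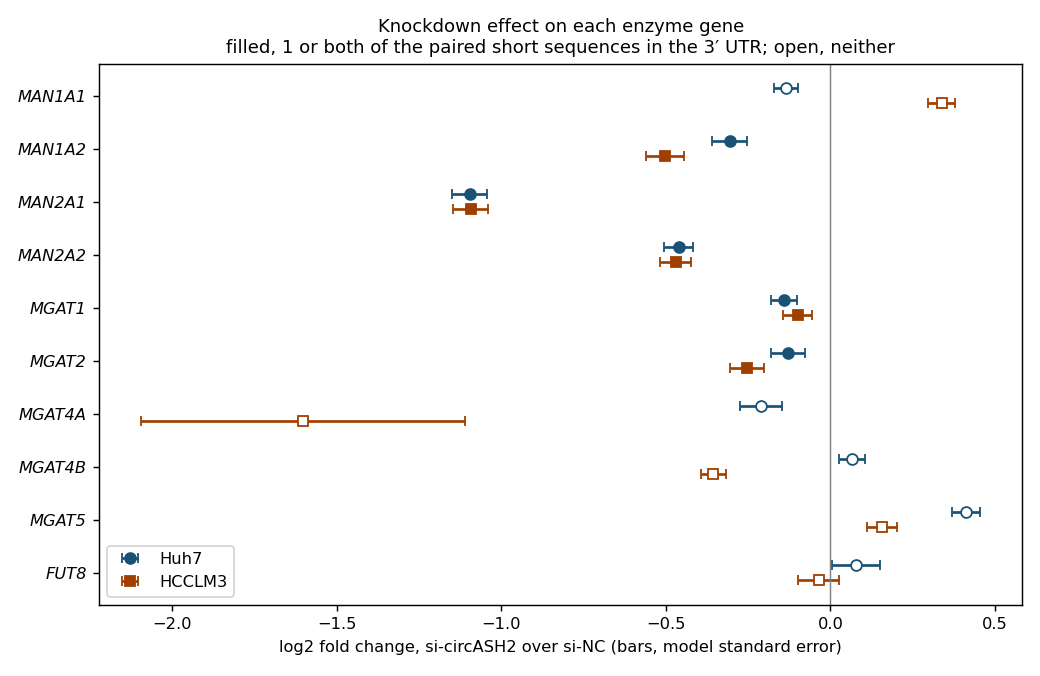
Log2 fold change of each enzyme gene after knockdown (si-circASH2 over si-NC) with its model standard error, circles for Huh7 and squares for HCCLM3, filled where the 3′ UTR holds TTATACC or TATACCA. All filled symbols lie below 0, with MAN2A1 at -1.10 and -1.09, while open symbols lie on either side, and the wide bar is MGAT4A in HCCLM3, which rests on 0 to 18 counts a library.

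After knockdown of circASH2, the class II mannosidase MAN2A1 changed most among the 9 enzymes with more than 20 counts in every library. In Huh7 it stood at 88.5, 85.2 and 87.8 CPM with si-NC and at 37.2, 42.8 and 42.3 CPM with si-circASH2. In HCCLM3 it stood at 76.9, 79.9 and 71.8 CPM with si-NC and at 35.1, 35.3 and 36.8 CPM with si-circASH2. Every knockdown library of either line lay below every control library, by more than the whole spread within any group. The means fell by 53.2% in Huh7 (log2 fold change -1.10 ± 0.05) and by 53.1% in HCCLM3 (-1.09 ± 0.05), and the difference of the log2 fold changes between the lines was 0.00 ± 0.08. MAN2A1 lies on chromosome 5 (109689366 to 109869625, plus strand, GRCh38).

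MAN2A2, the second class II mannosidase, encoded on chromosome 15 (90902218 to 90922584, plus strand), was lower too. Its Huh7 libraries held 98.5, 99.5 and 93.9 CPM with si-NC and 71.9, 71.9 and 68.3 CPM with si-circASH2. In HCCLM3 the values were 45.1, 44.45 and 47.7 CPM against 33.6, 32.4 and 33.1 CPM. Again no knockdown library reached a control library. The log2 fold changes were -0.46 ± 0.04 and -0.47 ± 0.05, with a difference between lines of -0.01 ± 0.06. About 10.3% of its exonic bases overlap the antisense gene AC068831.4, and since the strand of the libraries is not known, reads of that stretch cannot be assigned to either gene.

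Because MAN2A1 was lower by more than MAN2A2, the balance of the pair moved. MAN2A1 made up 54.3 ± 1.35% of the summed FPKM of both in Huh7 si-NC libraries and 43.6 ± 2.68% in si-circASH2 libraries. In HCCLM3 its share was 69.6 ± 2.10% and 59.7 ± 1.03%. The ranges of the groups did not overlap in either line.

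Upstream of that step, the 2 class I mannosidases did not change alike. MAN1A2 (chromosome 1, 117367449 to 117528872, plus strand), whose 3′ UTR holds 3 of the sites, was lower in both lines. It was at 90.1, 87.6 and 87.6 CPM in Huh7 si-NC and at 69.5, 69.5 and 75.6 CPM in Huh7 si-circASH2. The HCCLM3 libraries gave 44.9, 46.4 and 40.7 CPM with si-NC against 33.2, 28.9 and 31.1 CPM with si-circASH2. Groups did not overlap, and the log2 fold changes were -0.31 ± 0.05 and -0.50 ± 0.06. The difference between lines (-0.20 ± 0.08) was not called, but it was called at -0.25 when library 3 of HCCLM3 si-NC or library 1 of HCCLM3 si-circASH2 was left out.

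MAN1A1 (chromosome 6, 119177209 to 119349761, minus strand), the most abundant of the 10 in Huh7, moved in opposite directions. Its 3 Huh7 si-NC libraries had 544, 543 and 578 CPM and the si-circASH2 libraries 493, 499 and 525 CPM, a log2 fold change of -0.13 ± 0.04. In HCCLM3 the level was 64.6, 62.5 and 66.55 CPM with si-NC and 79.9, 80.4 and 84.6 CPM with si-circASH2, a log2 fold change of 0.34 ± 0.04. The groups did not overlap in either line, and all 3 knockdown libraries were below the controls in Huh7 and above them in HCCLM3. The log2 fold change in HCCLM3 exceeded that in Huh7 by 0.47 ± 0.05. Within the pair, MAN1A1 contributed 91.4 ± 0.333% of the summed FPKM in Huh7 si-NC and 92.3 ± 0.145% in Huh7 si-circASH2. In HCCLM3 its share was 71.2 ± 1.80% with si-NC and 81.4 ± 1.23% with si-circASH2.

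**Figure D3:**
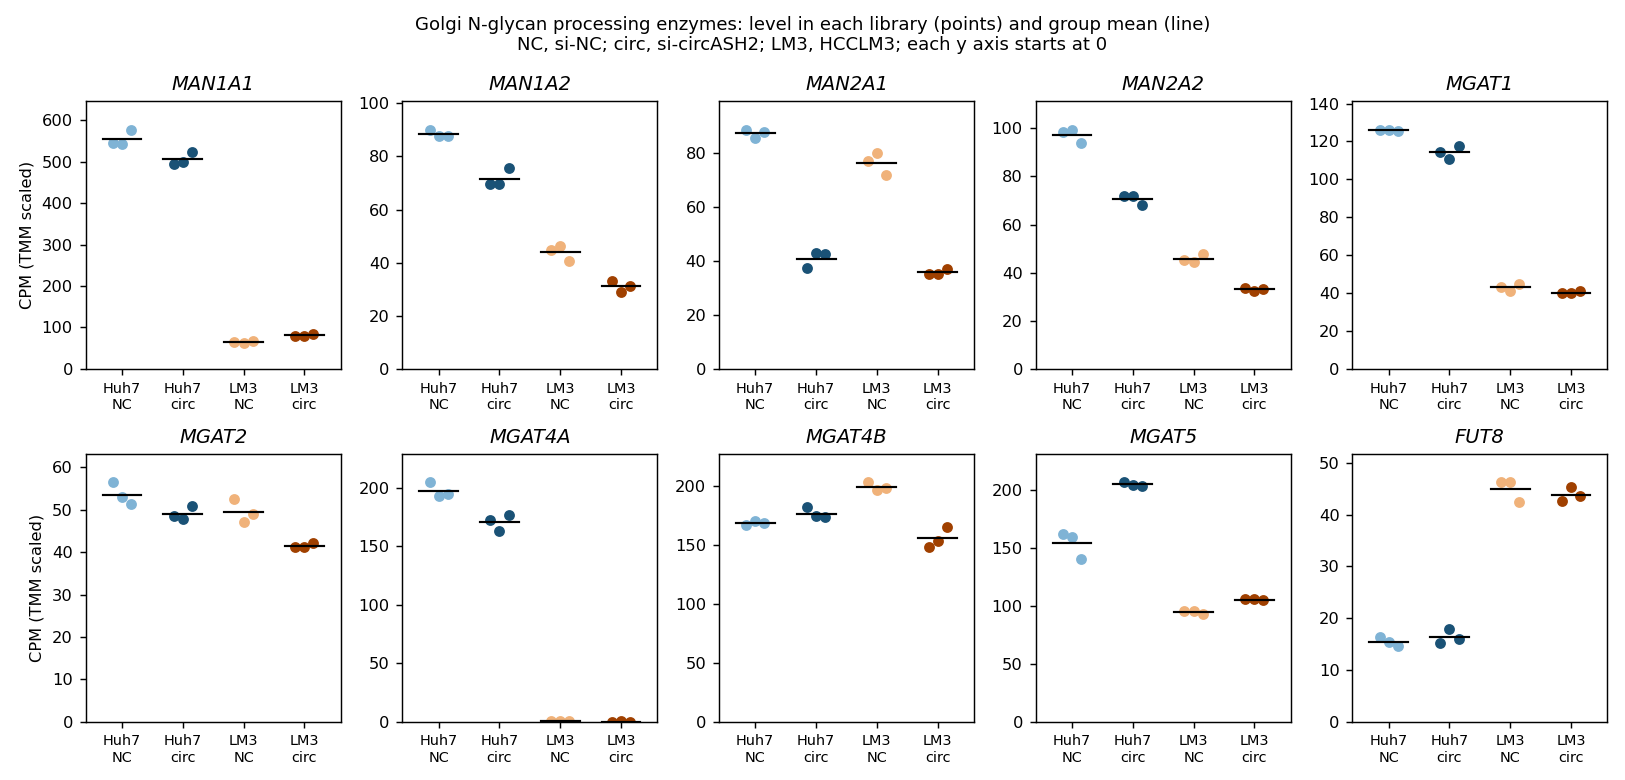
CPM of each enzyme gene in every library (points, TMM scaled) with the group mean (line), 1 panel per gene, blue for Huh7 and brown for HCCLM3, lighter for si-NC and darker for si-circASH2. MAN2A1, MAN2A2 and MAN1A2 lie lower in all knockdown libraries of both lines, MGAT5 lies higher in both, MAN1A1 lies lower in Huh7 and higher in HCCLM3, MGAT4B lies lower in HCCLM3 and was not called in Huh7 (log2 fold change 0.07 ± 0.04), and FUT8 overlaps.

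MGAT1, which commits a glycan to the hybrid and complex types, was lower by a small amount. It lies on chromosome 5 (180784782 to 180815652, minus strand). The Huh7 libraries held 126.2, 126.3 and 125.4 CPM with si-NC and 114.5, 110.8 and 117.6 CPM with si-circASH2, a log2 fold change of -0.14 ± 0.04 that was called lower on counts but not on FPKM. In HCCLM3 it had 43.1, 41.3 and 44.999 CPM against 39.9, 39.9 and 41.1 CPM, a log2 fold change of -0.10 ± 0.04 that was not called. The groups did not overlap in either line, although in HCCLM3 the lowest control library and the highest knockdown library were nearly equal.

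MGAT2, which starts the antenna on the other arm after the class II mannosidases have acted, was lower in HCCLM3. Its gene lies on chromosome 14 (49620795 to 49623481, plus strand), and 91.9% of its exonic bases overlap the antisense gene AL139099.1, so its counts cannot be assigned to 1 strand. In HCCLM3 it had 52.6, 47.0 and 48.9 CPM with si-NC and 41.2, 41.2 and 42.2 CPM with si-circASH2, a log2 fold change of -0.25 ± 0.05. In Huh7 the values were 56.5, 52.9 and 51.3 CPM against 48.6, 47.7 and 50.8 CPM, closer to each other but without overlap. That log2 fold change, -0.13 ± 0.05, was not called, and it was called without library 3 of either Huh7 group (-0.16 without the si-NC library and -0.15 without the si-circASH2 library), without the filter on low counts and with Huh7 fitted alone (-0.14 each).

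The branching enzymes did not share a direction. MGAT5 makes the branch that poly-N-acetyllactosamine chains prefer, and it is the one enzyme of the 10 that was higher in both lines. Its gene lies on chromosome 2 (134119983 to 134454621, plus strand). In Huh7 it was at 161.9, 159.2 and 140.4 CPM with si-NC and at 206.5, 204.3 and 203.6 CPM with si-circASH2, a log2 fold change of 0.41 ± 0.04. In HCCLM3 it was at 95.1, 95.6 and 92.6 CPM with si-NC and at 105.7, 105.5 and 104.7 CPM with si-circASH2, a log2 fold change of 0.16 ± 0.04. All 6 knockdown libraries lay above the controls of their line. The effect in HCCLM3 was smaller than in Huh7 by a log2 difference of -0.26 ± 0.06.

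MGAT4B, the widely expressed enzyme of the MGAT4 branch, is encoded on chromosome 5 (179797597 to 179806952, minus strand). In Huh7 it had 167.2, 169.8 and 168.4 CPM with si-NC and 181.8, 174.0 and 173.5 CPM with si-circASH2, a log2 fold change of 0.07 ± 0.04 that was not called. In HCCLM3 it had 202.95, 196.4 and 198.05 CPM with si-NC and 148.2, 153.6 and 165.3 CPM with si-circASH2, a log2 fold change of -0.36 ± 0.04. The knockdown libraries were thus slightly above the controls in one line and clearly below them in the other, and the difference of the log2 fold changes was -0.42 ± 0.06.

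MGAT4A, the second enzyme of that branch and the one known for its high expression in liver and pancreas, is encoded on chromosome 2 (98619106 to 98731126, minus strand). In Huh7 it was at 204.5, 193.1 and 194.7 CPM with si-NC and at 172.2, 162.6 and 176.8 CPM with si-circASH2, a log2 fold change of -0.21 ± 0.06. That call was lost without library 1 of Huh7 si-NC or library 2 of Huh7 si-circASH2 (-0.18 each) and on log2(FPKM + 0.1), where the value was -0.19. In HCCLM3 it had only 16, 9 and 18 counts per library with si-NC and 5, 9 and 0 counts with si-circASH2, which is 0.481 ± 0.146 and 0.156 ± 0.150 CPM. A library of each group held 9 counts, so the groups touch in counts and are parted in CPM only by library scaling. The gene passed the filter on low counts only through Huh7. The fitted log2 fold change of -1.60 ± 0.49 was called, but the call was lost without library 1 or 3 of si-NC (-1.52 and -1.43) or of si-circASH2 (-1.66 and -1.03). Its size went from -1.03 without si-circASH2 library 3 to -2.46 without si-circASH2 library 2. On the FPKM scales it was -0.37 with 0.1 added and -0.05, not called, with 1 added. The difference from Huh7 (-1.39 ± 0.50) was not called, but it was with DESeq2 (-1.42) and without library 2 of HCCLM3 si-NC (-1.61) or of HCCLM3 si-circASH2 (-2.23). Counts of 1 (1938 values) were rarer in the table than counts of 2 (6826 values), so the lowest counts are uncertain, and 3 counts in a library correspond to 0.0972 to 0.103 CPM. MGAT4A made up 25.4 ± 0.950% of the summed FPKM of the MGAT4 pair in Huh7 si-NC libraries and 22.45 ± 0.985% with si-circASH2. In HCCLM3 the share was 0.0633 ± 0.0209% and 0.0257 ± 0.0241%.

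FUT8, the sole core fucosyltransferase, is encoded on chromosome 14 (65410592 to 65744121, plus strand) and was the one enzyme whose groups overlapped in both lines. It had 16.4, 15.4 and 14.6 CPM in Huh7 si-NC and 15.2, 17.8 and 16.0 CPM in Huh7 si-circASH2. The HCCLM3 libraries held 46.2, 46.2 and 42.35 CPM against 42.6, 45.2 and 43.6 CPM. The log2 fold changes of 0.08 ± 0.07 and -0.04 ± 0.06 were not called, and that in Huh7 changed sign on the FPKM scale. About 13.6% of its exonic bases overlap FUT8-AS1 on the opposite strand. Smaller overlaps of this kind join MAN1A1 to AL137009.1 (1.58% of exonic bases) and MGAT4B to SQSTM1 (2.86%).

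Set side by side, the effects in the 2 lines differed by call for 3 of the 10 enzymes (MAN1A1, MGAT4B and MGAT5), 1 with a higher and 2 with a lower effect in HCCLM3. Among all tested features 20.9% were called for this difference, 9.6% higher and 11.3% lower. For MAN2A1, MAN2A2, MGAT1, MGAT2 and FUT8 the difference lay between -0.13 and 0.04 on the log2 scale, with standard errors of 0.06 to 0.10, and it was not called.

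The 5 enzymes with TTATACC or TATACCA in the 3′ UTR (MAN1A2, MAN2A1, MAN2A2, MGAT1 and MGAT2) had a median log2 fold change of -0.31 in Huh7 and -0.47 in HCCLM3. None of them was called higher, and 4 were called lower in each line. The 5 without a match had medians of 0.07 and -0.04, with 2 called lower in each line and 1 and 2 called higher. In HCCLM3, 1 of those called lower was MGAT4A, which had few counts there and passed the filter only through Huh7. The same split over 1637 other tested genes that hold either sequence gave 33.4% called lower and 11.8% called higher in Huh7, and 32.5% and 10% in HCCLM3. Of 12247 other genes without a match, 15.1% were called lower and 18.6% higher in Huh7, and 15.2% and 17.3% in HCCLM3. Most genes with a match were therefore not called lower, and some without one were. The sequences came to attention in these same libraries, so these splits, here and for the pathway genes below, are not independent evidence. Nor were the genes with and without a match made alike in 3′ UTR length.

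The genes whose profile was most like that of MAN2A1 were sought among 10921 genes with a symbol and at least 5 CPM on average, using log2 CPM centred within each line over the 12 libraries. LRRC58 (Pearson r = 0.996), ARPC5, which belongs to the actin-branching Arp2/3 complex (r = 0.9955), and SLC11A2, an iron transporter (r = 0.994), were the 3 closest. Their log2 fold changes were -1.19, -0.82 and -0.93 in Huh7 and -1.26, -0.87 and -0.80 in HCCLM3. All 3 hold TTATACC and TATACCA in the 3′ UTR, which is 6691, 6686 and 2333 bases long. Near the lengths of MGAT1 (6852 bases) and MAN1A1 (2610 bases), 37% and 20.6% of genes held at least 1 of the pair. The 3 genes were picked for changing like MAN2A1 in the libraries where the sequences came to attention, so this is not independent evidence. These correlations describe 12 libraries that share the same 2 contrasts. MGAT4A had the second largest mean change, and SERPINF2 (r = 0.976), EVA1C (r = 0.913) and ZCCHC10 (r = 0.906) were closest to it, none of them with either sequence, but this order rests on the few MGAT4A counts of HCCLM3.

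The other genes of the pathway were taken from 7 lists of 108 genes, of which 105 were tested. In Huh7, 13 were called higher and 19 lower, with a median log2 fold change of 0.01. With upper quartile scaling this split became 18 higher and 12 lower. In HCCLM3, 12 were called higher and 29 lower, with a median of -0.02. These are 12.4% higher and 18.1% lower in Huh7, and 11.4% and 27.6% in HCCLM3. Of all tested features, 16.3% were called higher and 15.1% lower in Huh7, and 15.1% and 15.5% in HCCLM3. The effects of the lines differed by call for 27 of the 105, 8 higher and 19 lower in HCCLM3. When limma was run on log2(FPKM + 0.1) over all features above 0, this number was 16 (8 and 8). Among all tested features, 20.9% were called for this difference, 9.6% higher and 11.3% lower. The counts of each list below stand beside these same shares of all features, and no list was tested as a set. Genes below carry the log2 fold change ± SE and the adjusted p of edgeR's quasi-likelihood test. In the counts of each list, genes that rose or fell are those called higher or lower, and the rest were not called. Of the 105, 14 held TTATACC or TATACCA in the 3′ UTR, and 5 of these were called lower and 2 higher in Huh7, and 6 and 1 in HCCLM3. Of the 91 without a match, 14 were called lower and 11 higher in Huh7 (15.4% and 12.1%), and 23 and 11 in HCCLM3 (25.3% and 12.1%).

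**Figure D4:**
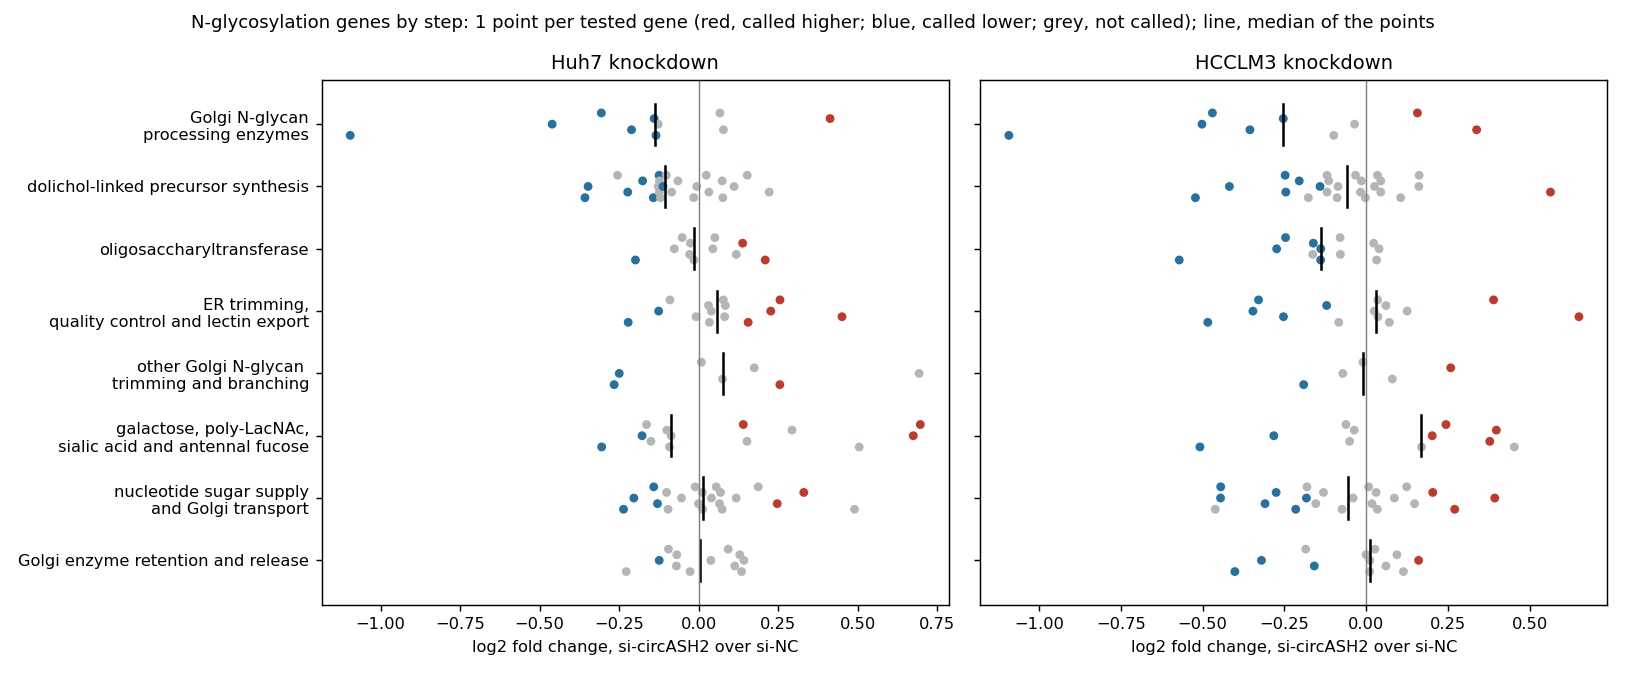
Log2 fold change after knockdown (x axis) of each N-glycosylation gene by step (rows), Huh7 on the left and HCCLM3 on the right, red for genes called higher, blue for lower and grey for not called, with the median of the points as a line. Genes under 20 counts in all 6 libraries of a line are not drawn (3 in Huh7 and 6 in HCCLM3, MGAT4A among the latter), and MAN2A1 is the lowest point in both panels.

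The precursor of N-glycans is built on the lipid dolichol. None of 24 such genes was called higher in Huh7 and 7 were called lower. In HCCLM3 1 was called higher and 6 lower (medians -0.11 and -0.06). NUS1, a subunit of the enzyme that makes the dolichol chain, fell by 0.35 ± 0.04 in Huh7 (adjusted p in edgeR = 1.31e-06) and by 0.25 ± 0.05 in HCCLM3 (adjusted p in edgeR = 0.000272), and its 3′ UTR holds TTATACC. The mannosyltransferase ALG9 fell by 0.36 ± 0.07 in Huh7 (adjusted p in edgeR = 0.000519). In HCCLM3, SRD5A3, which completes dolichol, fell by 0.52 ± 0.07 (adjusted p in edgeR = 4.29e-06), and ALG13, which adds the second sugar, fell by 0.42 ± 0.06 (adjusted p in edgeR = 8.29e-06). The glucosyltransferase ALG10 rose there by 0.56 ± 0.08 (adjusted p in edgeR = 7.61e-06), and its effect differed between the lines by 0.69 ± 0.12 (adjusted p in edgeR = 0.000162).

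Oligosaccharyltransferase moves the finished precursor onto the protein. Of its 12 genes 6 were called lower and none higher in HCCLM3 (median -0.14), whereas 1 was called lower and 3 higher in Huh7 (median 0.01). OSTC, a subunit of the complex that acts during translation, fell by 0.20 ± 0.05 in Huh7 (adjusted p in edgeR = 0.00382) and by 0.57 ± 0.05 in HCCLM3 (adjusted p in edgeR = 2.33e-08), and its 3′ UTR holds TATACCA. MAGT1, an oxidoreductase subunit, fell by 0.27 ± 0.04 in HCCLM3 (adjusted p in edgeR = 3.22e-06), an effect that differed from Huh7 by -0.32 ± 0.05 (adjusted p in edgeR = 9.44e-05). In Huh7 DAD1 rose by 0.21 ± 0.05 (adjusted p in edgeR = 0.00132). OST4 rose there by 0.14 ± 0.05 (adjusted p in edgeR = 0.0252), a call lost on FPKM, with Huh7 fitted alone and without library 1 or 3 of Huh7 si-NC or library 1 or 2 of Huh7 si-circASH2 (adjusted p from 0.0661 to 0.138). The third call was TUSC3, which had 0 to 4 counts in the Huh7 libraries and is given no fold.

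Glucosidases, mannosidases and lectins of the endoplasmic reticulum trim and check the glycan before it reaches the Golgi. Of 14 such genes 4 rose and 2 fell in Huh7, and 2 rose and 5 fell in HCCLM3. GANAB, the catalytic subunit of glucosidase II, rose from 708.7 ± 30.1 to 968.4 ± 7.74 CPM in Huh7 (0.45 ± 0.03, adjusted p in edgeR = 3.46e-10) and from 238 ± 6.17 to 374 ± 7.69 CPM in HCCLM3 (0.65 ± 0.03, adjusted p in edgeR = 7.35e-13). Its partner subunit PRKCSH rose by 0.16 ± 0.04 (adjusted p in edgeR = 0.00463) and 0.39 ± 0.04 (adjusted p in edgeR = 1.71e-07). EDEM1 and EDEM2, mannosidases that mark misfolded proteins, rose in Huh7 by 0.23 ± 0.04 (adjusted p in edgeR = 9.67e-05) and 0.26 ± 0.06 (adjusted p in edgeR = 0.00216). The export lectin LMAN1 fell by 0.22 ± 0.03 in Huh7 (adjusted p in edgeR = 1.7e-05) and by 0.48 ± 0.03 in HCCLM3 (adjusted p in edgeR = 1.88e-10), and its 3′ UTR holds TTATACC. Its partner MCFD2 fell in HCCLM3 by 0.35 ± 0.03 (adjusted p in edgeR = 4.33e-08). EDEM3, also with TTATACC, fell there by 0.33 ± 0.04 (adjusted p in edgeR = 8.34e-07), with a difference from Huh7 of -0.41 ± 0.06 (adjusted p in edgeR = 1.03e-05). MOGS, the glucosidase I gene, fell by 0.25 ± 0.05 in HCCLM3 (adjusted p in edgeR = 0.000143). Its smaller fall in Huh7, 0.13 ± 0.04 (adjusted p in edgeR = 0.0339), was lost on FPKM, with upper quartile scaling and without any si-NC library or without si-circASH2 library 2 of that line (adjusted p from 0.0585 to 0.159). The chaperone CANX fell by 0.12 ± 0.03 in HCCLM3 (adjusted p in edgeR = 0.00532).

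Among 8 other tested Golgi trimming and branching genes 1 rose and 2 fell in Huh7 and 1 rose and 1 fell in HCCLM3, so most did not pass. MANEA, the endomannosidase, which offers a route around the glucosidases and holds both short sequences in its 3′ UTR, fell by 0.27 ± 0.06 in Huh7 (adjusted p in edgeR = 0.00082). Its fall of 0.19 ± 0.06 in HCCLM3 (adjusted p in edgeR = 0.0223) was lost on FPKM and without library 1 or 2 of HCCLM3 si-NC or library 2 of HCCLM3 si-circASH2 (adjusted p from 0.0545 to 0.0741). GNPTG and NAGPA, which act on the mannose 6-phosphate tag of lysosomal enzymes, went opposite ways. GNPTG rose by 0.26 ± 0.07 in HCCLM3 (adjusted p in edgeR = 0.00799) and by 0.26 ± 0.07 in Huh7 (adjusted p in edgeR = 0.00761), the latter call being lost without library 1 of Huh7 si-circASH2 (adjusted p = 0.0689). NAGPA fell by 0.25 ± 0.08 in Huh7 (adjusted p in edgeR = 0.0161), lost without library 1 or 2 of Huh7 si-NC or library 2 of Huh7 si-circASH2 (adjusted p from 0.0536 to 0.0874).

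The antennae made by the branching enzymes are extended with galactose, sialic acid and fucose. Of 13 tested genes 3 rose and 2 fell in Huh7, and 4 rose and 2 fell in HCCLM3. FUT3, the Lewis fucosyltransferase, rose from 42.0 ± 2.72 to 67.1 ± 5.2 CPM in Huh7 (0.67 ± 0.06, adjusted p in edgeR = 1.64e-08), and it was near 0 in HCCLM3, at 0.214 ± 0.0529 and 0.246 ± 0.0367 CPM. The galactosyltransferase B4GALT1 rose by 0.14 ± 0.04 in Huh7 (adjusted p in edgeR = 0.00771) and holds TATACCA in its 3′ UTR. B3GNT8, which extends branched glycans, rose there by 0.70 ± 0.20 (adjusted p in edgeR = 0.0104). Its level was low, at 2.20 ± 0.0899 and 3.57 ± 0.233 CPM, under the 5 CPM set for named genes. B4GALT3 fell in both lines, by 0.31 ± 0.07 (adjusted p in edgeR = 0.000953) and 0.51 ± 0.07 (adjusted p in edgeR = 3.53e-06). The sialyltransferase ST6GAL1 fell in Huh7 by 0.18 ± 0.04 (adjusted p in edgeR = 0.00176) and rose in HCCLM3 by 0.38 ± 0.05 (adjusted p in edgeR = 4.34e-06), a difference between lines of 0.56 ± 0.07 (adjusted p in edgeR = 1.28e-06). In HCCLM3 B4GALT2 rose by 0.24 ± 0.06 (adjusted p in edgeR = 0.00359), ST3GAL3 by 0.40 ± 0.13 (adjusted p in edgeR = 0.0221) and B3GNT2 by 0.20 ± 0.07 (adjusted p in edgeR = 0.0205). ST3GAL3 was also under 5 CPM there, at 2.89 ± 0.353 and 3.81 ± 0.313 CPM. ST3GAL4 fell in HCCLM3 by 0.28 ± 0.07 (adjusted p in edgeR = 0.00295), a call lost on log2(FPKM + 0.1) (adjusted p = 0.0774).

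Nucleotide sugars are the donors of all these steps. Of 22 genes for their supply and transport 2 rose and 4 fell in Huh7, and 3 rose and 6 fell in HCCLM3. GFPT1, the entry enzyme of the hexosamine pathway, rose in both lines, by 0.25 ± 0.04 (adjusted p in edgeR = 2.09e-05) and 0.27 ± 0.04 (adjusted p in edgeR = 6.07e-06), and its 3′ UTR holds TATACCA. UAP1, which makes the UDP-N-acetylglucosamine that the MGAT enzymes use, fell by 0.20 ± 0.06 in Huh7 (adjusted p in edgeR = 0.00781) and by 0.45 ± 0.06 in HCCLM3 (adjusted p in edgeR = 2.19e-06). GNPNAT1 of the same pathway fell by 0.22 ± 0.04 in HCCLM3 (adjusted p in edgeR = 0.000674). The UDP-galactose carrier SLC35A2 rose by 0.33 ± 0.05 in Huh7 (adjusted p in edgeR = 1.67e-05), a call lost on log2(FPKM + 0.1) (adjusted p = 0.103). MPI, which makes mannose 6-phosphate, fell in Huh7 by 0.24 ± 0.06 (adjusted p in edgeR = 0.00455), a call lost on FPKM and without library 3 of Huh7 si-NC (adjusted p = 0.0602). In HCCLM3 the phosphomannomutase PMM1 rose by 0.39 ± 0.09 (adjusted p in edgeR = 0.00118). The GDP-fucose carrier SLC35C1 fell there by 0.31 ± 0.07 (adjusted p in edgeR = 0.00211), and its difference from Huh7 was -0.50 ± 0.11 (adjusted p in edgeR = 0.00236), a difference lost on log2(FPKM + 0.1) (adjusted p = 0.0545).

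Enzymes of the Golgi stay in place through recycling by the conserved oligomeric Golgi (COG) complex. Of 12 genes for retention and release 1 fell in Huh7, and 1 rose and 3 fell in HCCLM3. TMEM165, a Golgi manganese transporter, fell by 0.32 ± 0.04 in HCCLM3 (adjusted p in edgeR = 3.3e-06). Its fall of 0.12 ± 0.04 in Huh7 (adjusted p in edgeR = 0.0354) was lost in 5 of the 6 fits that left out 1 Huh7 library, all but si-NC library 3 (adjusted p from 0.0559 to 0.122). COG3 fell by 0.40 ± 0.09 (adjusted p in edgeR = 0.00115) and the retention adaptor GOLPH3 by 0.16 ± 0.04 (adjusted p in edgeR = 0.00515) in HCCLM3. COG1 rose there by 0.16 ± 0.05 (adjusted p in edgeR = 0.0266), lost without library 2 or 3 of HCCLM3 si-NC or library 1 or 2 of HCCLM3 si-circASH2 (adjusted p from 0.0752 to 0.106). The genes EDEM2, CANX, B3GNT8, ST3GAL3, B3GNT2, GOLPH3 and TUSC3 were named after their values were seen, because the counts of their lists were small. Their calls were not followed gene by gene under the alternative fits, so whether they depend on 1 library is not given.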

How the data were processed

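Messenger RNA was sequenced in 12 libraries, 3 in each of 4 groups taken from the labels. Per the labels' protocols, column-purified total RNA went into a SMARTer library kit. The values analysed were the deposited counts per gene, whole numbers by value and named so per the file headers. The deposited FPKM of the same genes, which per the file headers the authors scaled for length and depth, gave levels per length and an alternative test. Aligner, counter, annotation and strand were not given in the sources used here, and the submitters' processing notes list hg38 beside mouse builds without a role. How the authors set the length of each gene for FPKM is not stated.

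Counts were fitted with edgeR 4.0.16 in R 4.3.3. filterByExpr over the 4 groups (minimum count of 10) left 16946 of 23583 features, TMM scaled the libraries, 1 coefficient per group was fitted by robust quasi-likelihood with 8 residual degrees of freedom (common biological coefficient of variation 5.65%), with Benjamini-Hochberg adjustment over all features and a threshold of 0.05. Standard errors are |log2 fold change| over the root of the F statistic. CPM are TMM scaled. limma 3.58.1 on log2(FPKM + 0.1) or log2(FPKM + 1), and DESeq2 1.42.0, were among 21 alternatives. The fit was tested on simulated data. Pairs of replicates differed by more than sampling noise (chi-square per degree of freedom from 3.89 to 8.53).

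The enzymes, lists and short sequences were chosen with earlier results of these data known. All 10 enzymes are named. From each of 7 lists and each knockdown, up to 2 genes called in each direction with the smallest p and at least 5 CPM are named, and up to 1 with a called difference between lines. The 3 genes closest to each of the 2 enzymes with the largest mean absolute change are also named. 3′ UTRs came from GENCODE 29 transcripts. Protein sequences were not used here.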

Additional observations from a re-analysis of the deposited data

Results flagged for a closer look

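Of the 10 enzymes, 3 had a knockdown effect that differed between the cell lines in the edgeR fit, given here as the log2 fold change in HCCLM3 minus that in Huh7. For MAN1A1 the difference was 0.47 ± 0.05, with all 3 knockdown libraries below the controls in Huh7 and above them in HCCLM3. For MGAT4B it was -0.42 ± 0.06, with the knockdown libraries above the controls in Huh7 and below them in HCCLM3. For MGAT5 it was -0.26 ± 0.06, with higher levels after knockdown in both lines. These genes were selected on the same libraries, so the differences are descriptions. Groups of 3 libraries are too small for the outlier test, which starts at 4.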

How the results depend on the processing

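Each result was recomputed under 21 alternatives. Over the 10 enzymes and 4 comparisons, 767 recomputed values kept their direction and call, 24 lost the call and 9 gained one. The other 19 changed sign with no call in either fit, or had no adjusted p. No called value changed sign. The number of enzymes called ranged from 5 to 8 in Huh7, from 7 to 8 in HCCLM3, from 3 to 4 for the difference between lines and from 9 to 10 at baseline. For the 105 pathway genes it ranged from 22 to 35 in Huh7, from 30 to 46 in HCCLM3 and from 16 to 31 for the difference between lines. The lowest of these, 16 against 27, came from limma on log2(FPKM + 0.1) over all features above 0. The cause was not tested. Same-numbered libraries of a line did not deviate together (correlations from -0.031 to 0.045), so the main fit did not pair them. With 3 libraries in a group this cannot exclude that a number marks a shared culture or day, which the labels do not say. A replicate block gave 6 enzymes called in Huh7, 7 in HCCLM3, 3 for the difference and 9 at baseline, and 31, 42 and 25 pathway genes. The calls of MGAT4A in Huh7 (-0.21) and HCCLM3 (-1.60) and of MGAT2 at baseline (-0.11) were lost under the block. The values themselves were as in the fit without it. MGAT4A in HCCLM3 was not tested with that line fitted alone, because its counts did not pass the filter, and it is the one enzyme whose values are limited by depth.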
